A study of Mus musculus with 8 samples.

Results

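The miR-29 and miR-148/miR-152 families were examined in small RNA libraries of KH2-DGCR8 cells during embryoid body (EB) differentiation. All rows of the deposited table named mmu-miR-29a, mmu-miR-29b, mmu-miR-29c, mmu-miR-148a, mmu-miR-148b or mmu-miR-152, with any copy number and arm, were taken. This gave 13 of the 1099 mature miRNAs listed, 7 of the miR-29 family and 6 of the miR-148/miR-152 family. The rule uses names and no measured value. The KH2 line consists of mouse embryonic stem cells designed to take up transgenes switched on by doxycycline (Dox), here for DGCR8, the RNA-binding partner of DROSHA in the Microprocessor, which cuts hairpins out of primary miRNA transcripts. The groups were days 0, 1, 2 and 4 of EB differentiation with Dox and the same days without Dox. Each condition had 1 library, and the transgenic line was the same throughout. No line without the transgene was analysed here, so Dox itself and DGCR8 overexpression cannot be told apart, and the sources used here do not give when Dox was added.

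Both families are known for acting on the DNA methylation machinery. A miRNA finds its messages mainly through its seed, bases 2 to 8 from the 5′ end. The miR-29 seed pairs with sites in the messages of the de novo methyltransferases DNMT3A and DNMT3B, and also of TET enzymes, which oxidise methylcytosine. The miR-148/miR-152 family has been described in human cells as acting on DNMT1, the maintenance methyltransferase, and on DNMT3B. Cells that leave the embryonic stem cell state gain DNA methylation. None of these messages or proteins is read by small RNA libraries, and no target sites were searched. The label of methylation regulators was therefore not tested here, and the sequences below show only which miRNAs share a seed.

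The 6 arms on the 3′ side of the hairpins carry the family seeds, and they are shown to compare the seeds (in capitals) and the bases outside them. RefSeq mature sequences (GRCm38.p6) matched all 13 members.
miR-29a-3p: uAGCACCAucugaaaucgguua
miR-29c-3p: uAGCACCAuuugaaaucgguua
miR-29b-3p: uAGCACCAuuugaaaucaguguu
miR-148a-3p: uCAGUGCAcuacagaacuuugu
miR-148b-3p: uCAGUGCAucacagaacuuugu
miR-152-3p: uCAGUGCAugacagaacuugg
Among the 926 listed miRNAs with a RefSeq sequence, the seed AGCACCA occurred in the first 3 and in no other miRNA, and the seed CAGUGCA in the other 3 and in no other. Counted from the 5′ end, miR-29c-3p differs from miR-29a-3p by C10U, and miR-29b-3p differs from miR-29c-3p by G18A, U21G and A22U. miR-148b-3p differs from miR-148a-3p by C9U and U10C, and miR-152-3p differs from miR-148b-3p by C10G and U20G. The arms on the 5′ side carry other seeds. Those that the results turn on are shown with bases 2 to 8 in capitals.
miR-148a-5p: aAAGUUCUgagacacuccgacu
miR-148b-5p: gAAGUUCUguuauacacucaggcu
miR-152-5p: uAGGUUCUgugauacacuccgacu

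The members come from 7 hairpins, given with their overlaps in the GENCODE annotation. Mir29a (chromosome 6, 31062660 to 31062747, minus strand, mm10) lies 275 bases from Mir29b-1 (31063023 to 31063093), which overlaps an exon of the long non-coding RNA gene Gm27019. Mir29b-2 (chromosome 1, 195037040 to 195037120, plus strand) lies 426 bases from Mir29c (195037547 to 195037634). Both overlap exons of the non-coding A330023F24Rik and, on the opposite strand, of Cd46. miR-29b-3p is made from either miR-29b hairpin, so its value cannot be assigned to 1 locus. Mir148a (chromosome 6, 51269812 to 51269910, minus strand) overlaps no other annotated gene. Mir148b (chromosome 15, 103285125 to 103285221) lies in an intron of Copz1, and Mir152 (chromosome 11, 96850393 to 96850465) in an intron of Copz2, genes for paralogous coatomer subunits.

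Values are RPM, miRNA reads scaled to 1000000 per library, and rested on 362483 to 541342 implied reads. A count of 3 reads corresponds to 5.54 to 8.28 RPM. Of the 13 members 9 had a mean of at least 10 RPM over the 8 libraries. The other 4, the arms of miR-29 on the 5′ side, lay between 0 and 13 RPM (at most 6 reads) and are below useful depth. The mature forms have 21 to 25 bases, so levels were compared without a length correction. Ligation and PCR can favour some sequences, so an order of levels concerns reads, not molecules.

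miR-148a-3p was the most abundant member. It stood at 10523, 9313, 12766 and 31766 RPM with Dox at days 0, 1, 2 and 4, against 8809, 10956, 9136 and 21979 without Dox. It ranked between 8th and 25th of all miRNAs in a library. Next came miR-148b-3p, at 2761, 4187, 3395 and 2813 RPM with Dox against 2763, 3875, 2806 and 3501 without. The ranges of these paralogs did not overlap. miR-152-3p stood at 306, 218, 389 and 949 RPM with Dox against 451, 231, 282 and 1247 without. It was thus the scarcest of the 3 arms that share the seed in every library. Together the 3 arms held 1.36%, 1.37%, 1.66% and 3.55% of all miRNA reads at days 0, 1, 2 and 4 with Dox. Without Dox they held 1.20%, 1.51%, 1.22% and 2.67% at days 0, 1, 2 and 4. Summed by seed, CAGUGCA ranked 15th, 14th, 14th and 8th of 792 seeds at days 0, 1, 2 and 4 with Dox, against 13th, 13th, 16th and 14th without.

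**Figure D1:**
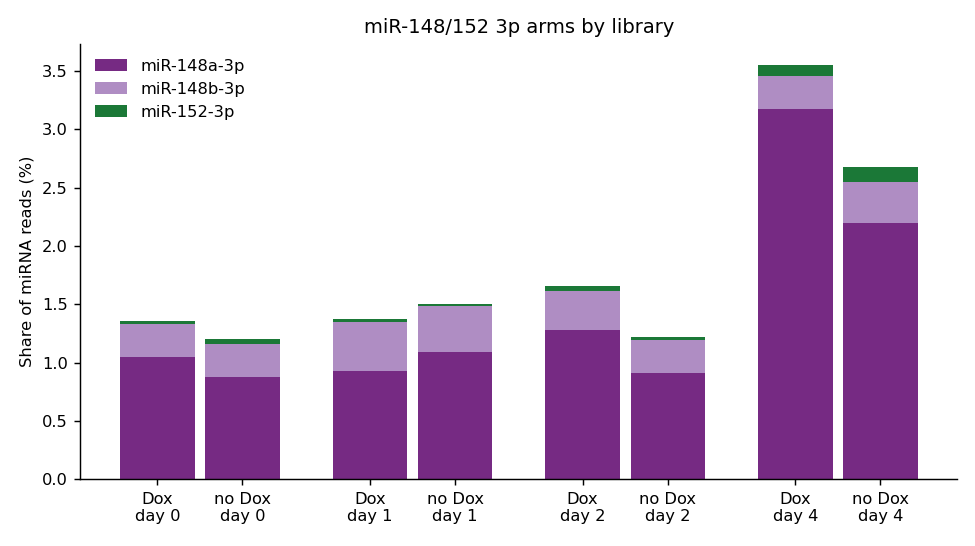
Share of all miRNA reads (%, axis from 0) taken by miR-148a-3p, miR-148b-3p and miR-152-3p in each of the 8 libraries, 1 library per bar. The bars stand at 3.55% with Dox and 2.67% without at day 4 and at most 1.66% on earlier days, and miR-148a-3p is the largest part of every bar.

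The miR-29 family was scarcer. miR-29a-3p stood at 312, 436, 683 and 1101 RPM with Dox at days 0, 1, 2 and 4, against 359, 273, 678 and 1291 without. miR-29c-3p stood at 298, 436, 655 and 1090 RPM with Dox against 351, 260, 662 and 1252 without, so that the 2 values lay within 4.76% of each other in every library. miR-29b-3p stood at 16, 23, 43 and 68 RPM with Dox against 7, 11, 40 and 50 without. That is 3 to 37 reads. The ranges of miR-29a-3p and miR-152-3p overlapped, and at day 0 with Dox the 2 differed by 2 reads (114 and 112). miR-29b-3p was below miR-29a-3p in all 8 libraries.

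The near-equal values of miR-29a-3p and miR-29c-3p bear on every count below. They differ by 1 base and by at most 14 reads in a library, although their hairpins are on different chromosomes. The sources used here do not say how reads matching several miRNAs were counted. Among miRNAs averaging 50 RPM or more, 15 pairs of mature sequences differed by 1 base, and the higher and lower value lay within 10% of each other in every library in 5 of them, miR-29a-3p with miR-29c-3p among these. Of 24 pairs that differed by 2 bases 1 did so. Not all pairs at 1 base were near-equal, since let-7a-5p and let-7e-5p had a median gap of 82.7%. miR-148a-3p and miR-148b-3p, 2 bases apart, had a median gap of 71.3%, and miR-148b-3p and miR-152-3p one of 88.7%. miR-29a-3p and miR-29c-3p are therefore treated as 1 signal that cannot be separated, and their sum may count reads more than once.

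**Figure D2:**
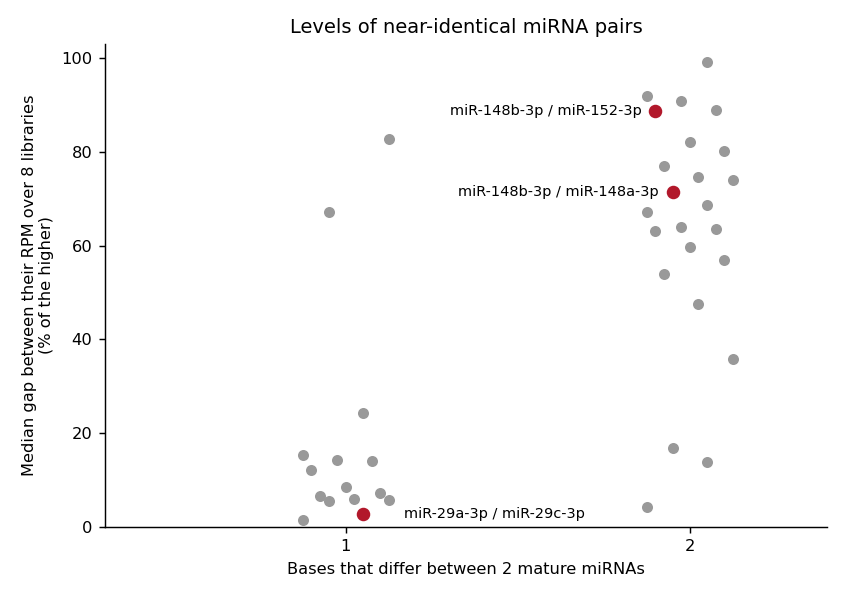
Each point is a pair of mature miRNAs with means of at least 50 RPM whose sequences differ by 1 base (15 pairs) or 2 bases (24 pairs), and the vertical axis gives the median over 8 libraries of the gap between their RPM as a percentage of the higher. miR-29a-3p and miR-29c-3p lie at 2.69%, whereas the miR-148/miR-152 pairs lie at 71.3% and 88.7%.

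EB differentiation was compared as day 4 against day 0, with both treatments in the model. Each day has 1 library of each treatment, and these stood in for replicates of the day. 6 members rose and 0 fell, or 5 signals with miR-29a-3p and miR-29c-3p taken as 1. Of these, miR-148a-3p and miR-148a-5p are the arms of 1 hairpin. Among all 839 miRNAs tested 25.7% passed, 21.9% higher and 3.81% lower, and the median log2 change was 0.56. Of the 499 averaging 10 RPM or more, fitted alone, 205 passed (172 higher, 33 lower), the 6 members among them. The median of all 13 members was 0.58, close to that of all 839 miRNAs, but the 13 include the 4 arms below useful depth. Among the 9 members averaging 10 RPM or more the median was 1.46, against 0.58 for all 499 miRNAs at that level. Those that rose were miR-29a-3p, miR-29c-3p, miR-29b-3p, miR-148a-3p, miR-148a-5p and miR-152-3p. The log2 changes are on the log2(RPM + 1) scale and come from limma with Benjamini-Hochberg adjustment over the 839.

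miR-29a-3p rose by 1.83 (SE 0.32, adjusted p = 1.82e-07). Within each treatment it was 3.53 times as high at day 4 as at day 0 with Dox and 3.60 times without. Both day 4 values lay above every value of days 0 to 2. For miR-29b-3p the rise was 2.35 (SE 0.62, adjusted p = 0.00119). It was 4.25 times as high with Dox and 7.14 times without, where the day 0 value rests on 3 reads. Without the day 0 library without Dox its adjusted p was 0.0528. miR-148a-3p rose by 1.46 (SE 0.24, adjusted p = 2.10e-08). It was 3.02 times as high with Dox and 2.50 times without, and on days 0 to 2 it lay between 8809 and 12766 RPM. The rise of miR-152-3p was 1.55 (SE 0.33, adjusted p = 3.75e-05), and day 4 reached 3.10 times the day 0 level with Dox and 2.77 times without. The scarcer arm of the miR-148a hairpin, miR-148a-5p, changed by 0.91 (SE 0.37, adjusted p = 0.0483). Of 16 alternative fits 14 left its adjusted p above 0.05, including those without any 1 library other than day 4 without Dox (0.0713 to 0.337).

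For miR-148b, which shares the seed of miR-148a and miR-152, neither arm passed. At day 4 the log2 change was 0.18 for miR-148b-3p (SE 0.26, adjusted p = 0.667), and 0.16 for miR-148b-5p (SE 0.42, adjusted p = 0.854). The highest miR-148b-3p values were at day 1 in both treatments, 4187 RPM with Dox and 3875 without, and its log2 change at day 1 was 0.54 (SE 0.26, adjusted p = 0.225). The share of miR-148b-3p among the 3 arms with this seed was 7.92% at day 4 against 20.3% at day 0 with Dox, and 13.1% at day 4 against 23.0% at day 0 without. The difference between the paralogs' day changes was not tested. Relative to the median change of all miRNAs the day 4 change of miR-148b-3p was -0.38 and that of miR-148a-3p 0.89. With scaling by the median of ratios the change of miR-148b-3p was -0.42, so it has no settled direction.

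**Figure D3:**
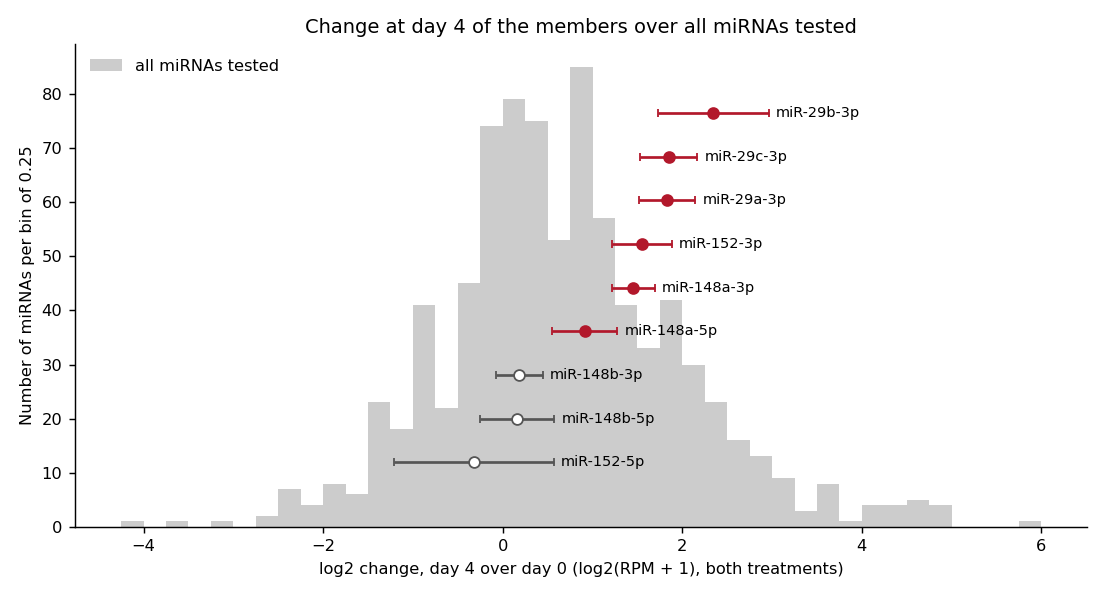
Grey bars count all 839 miRNAs tested by their log2 change at day 4 over day 0 (bins of 0.25), and points with SE bars show the 9 members averaging 10 RPM or more, placed at arbitrary heights. Filled red points passed an adjusted p of 0.05. The filled points lie between 0.91 and 2.35, and the open points, both arms of miR-148b and miR-152-5p, between -0.32 and 0.18.

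Fewer members passed at the earlier days. At day 2 against day 0, 3 members rose and 0 fell, all of miR-29, with miR-29a-3p and miR-29c-3p counted as 2. Of all miRNAs tested 17.3% passed (15.3% higher, 2.03% lower). Of the 499 averaging 10 RPM or more, fitted alone, 149 passed (128 higher, 21 lower). miR-29a-3p rose by 1.02 (SE 0.32, adjusted p = 0.0128), miR-29c-3p by the same amount, and miR-29b-3p by 1.86 (SE 0.62, adjusted p = 0.0219). At that day the log2 change of miR-148a-3p was 0.17 (SE 0.24, adjusted p = 0.685), and miR-152-3p stood at -0.16 (SE 0.33, adjusted p = 0.801). The difference between the families was not tested. All 3 calls were lost without any 1 of the 4 libraries of days 0 and 2 (miR-29a-3p: 0.84 and adjusted p = 0.236 without day 0 with Dox, 1.06 and 0.157 without day 2 with Dox, 1.20 and 0.078 without day 0 without Dox, 0.99 and 0.284 without day 2 without Dox).

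At day 1 miR-152-5p alone of the 13 members passed, where 8.1% of all miRNAs tested passed (7.03% higher, 1.07% lower). It fell by 2.95 (SE 0.89, adjusted p = 0.0174), but it rested on 2 reads with Dox and 0 without at day 1, where 3 reads would be 5.79 and 6.67 RPM. Without the day 1 library without Dox its log2 change was -0.74 (adjusted p = 0.849), and its adjusted p was 0.153 to 0.261 without either day 0 or either day 2 library. miR-29a-3p went in opposite directions in the treatments at day 1, at 1.40 times its day 0 level with Dox and 0.76 times without. With scaling by the median of ratios, which brought the median day 2 change of all miRNAs from 0.48 to 0.03, 0 of the 3 calls at day 2 passed (miR-29a-3p: 0.55, adjusted p = 0.273). Under that scaling the day 4 changes were 1.23 for miR-29a-3p, 0.86 for miR-148a-3p, 0.95 for miR-152-3p and 1.78 for miR-29b-3p, and these 4 still passed.

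**Figure D4:**
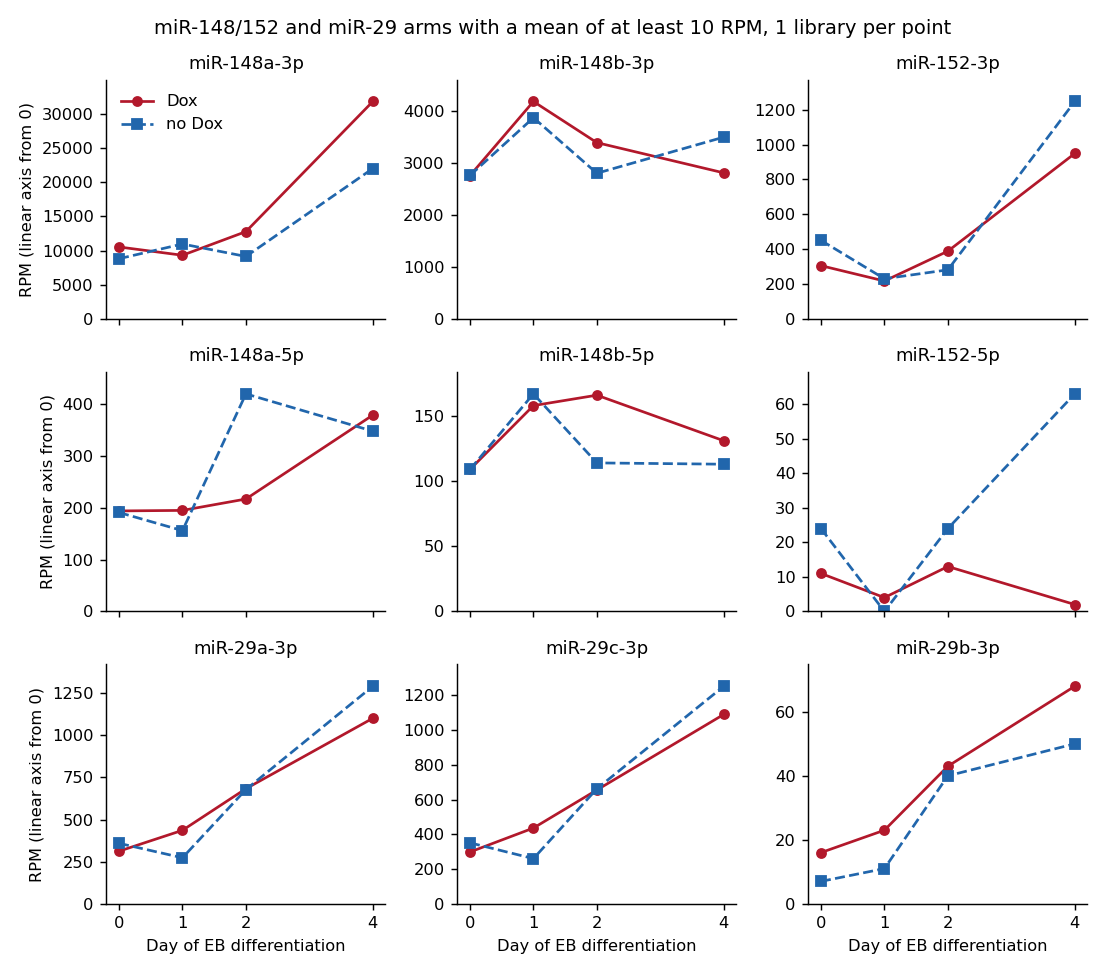
RPM (linear axes from 0) by day of EB differentiation for the 9 members averaging 10 RPM or more, with Dox (red circles, solid lines) and without Dox (blue squares, dashed lines), 1 library per point. Both day 4 points are above all earlier points for miR-148a-3p, miR-152-3p and the 3 miR-29 arms. They are not for miR-148a-5p (420 RPM at day 2 without Dox, 379 and 348 at day 4), miR-152-5p or either arm of miR-148b.

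Markers moved with day as well. The stem cell markers, 5 miRNAs from the miR-290 cluster, summed to 317856, 282149, 288253 and 174054 RPM at days 0, 1, 2 and 4 with Dox, and to 350146, 285816, 289761 and 121819 without. Since RPM is a share, a lower share of these miRNAs raises the share of others. At day 0 they were abundant in both treatments. Of 10 fibroblast (feeder) markers 9 were listed, with sums of 19349 to 57591 RPM with Dox and 13535 to 39754 without, highest at day 4 in both treatments. Most of that was miR-21a-5p (53151 RPM with Dox and 36898 without at day 4), the 1 of the 9 that rose at day 4 against day 0, while miR-145a-5p fell by 1.18 (limma, adjusted p = 0.0477). The median log2 change of the 9 was -0.39. The other 8 summed to 4674, 6539, 5806 and 4440 RPM at days 0, 1, 2 and 4 with Dox, against 5107, 5990, 4986 and 2856 without. The 4 blood and endothelium markers listed summed to 1110 to 2056 RPM, with a median log2 change of -0.28 at day 4. Of these miR-150-5p fell by 4.19 (limma, adjusted p = 2.5e-29), to 74 RPM with Dox and 50 without at day 4. miR-451a rose by 2.81 (limma, adjusted p = 0.0355), at 6 RPM in both day 4 libraries and 0 on days 0 to 2. In those day 4 libraries 3 reads would be 5.54 RPM with Dox and 8.28 without, so miR-451a is near the floor. The 5 endoderm markers summed to 282 to 985 RPM (median -0.58), with miR-375-3p higher and miR-194-5p lower at day 4. The part of these cell types in the member changes was not tested. In bulk RNA, more cells of a type and more of a miRNA per cell cannot be told apart.

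The effect of Dox was tested over the 4 days together. Of the 13 members 0 passed (limma; 1 had an unadjusted p under 0.05), also in 14 alternative fits. Of all miRNAs tested 1.91% passed, 1.31% higher and 0.596% lower. By mean over 4 days miR-148a-3p stood at 16092 RPM with Dox and 12720 without, and the fitted log2 change was 0.26 (SE 0.17, adjusted p = 0.646). For miR-29b-3p it was 0.66 (SE 0.44, adjusted p = 0.666), and this arm was higher with Dox on all 4 days. The log2 change was 0.06 for miR-29a-3p (SE 0.22, adjusted p = 0.993), and -0.14 for miR-152-3p (SE 0.24, adjusted p = 0.936). The member with the unadjusted call was miR-29a-5p, at 0, 0, 2 and 0 RPM with Dox against 5, 4, 12 and 3 without. Its log2 change was -2.26 (SE 0.83, adjusted p = 0.181). It rested on at most 1 read in a library with Dox and at most 5 without. A change of the Dox ratio with day passed for 0 members (limma; miR-152-5p had an unadjusted p under 0.05) and for 0.954% of all miRNAs, 0.238% higher and 0.715% lower. For miR-152-5p it was -1.15 per day (adjusted p = 0.179), -2.18 (0.044) without the day 0 pair and 0.11 (1) without the day 4 pair.

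Within single days each ratio compares 1 library with 1 library and has no replicate check. The 95% intervals cover counting error only. For miR-148a-3p the ratio of Dox to no Dox was 1.19 (1.14 to 1.25) at day 0, 0.85 (0.817 to 0.885) at day 1, 1.40 (1.34 to 1.46) at day 2 and 1.45 (1.41 to 1.48) at day 4. Its intervals left out 1 on every day but not on the same side. For miR-29a-3p the ratio was 0.869 (0.674 to 1.12), 1.60 (1.28 to 2.00), 1.01 (0.855 to 1.18) and 0.853 (0.754 to 0.965) at days 0, 1, 2 and 4. For miR-152-3p it was 0.679 (0.532 to 0.863), 0.944 (0.717 to 1.24), 1.38 (1.09 to 1.75) and 0.761 (0.670 to 0.866). At day 4 miR-148a-3p was thus higher with Dox while miR-148b-3p, at 0.804 (0.745 to 0.867), miR-152-3p and miR-29a-3p were lower.

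Among the 9 members averaging 10 RPM or more the interval left out 1 in 2, 4, 5 and 6 members at days 0, 1, 2 and 4. Of all miRNAs at that level 30.8%, 34.5%, 42.9% and 52.8% did so at days 0, 1, 2 and 4, so such intervals were common in these library pairs. miR-29a-3p and miR-29c-3p, counted here as 2 members, were above 1 at day 1 and below it at day 4.

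**Figure D5:**
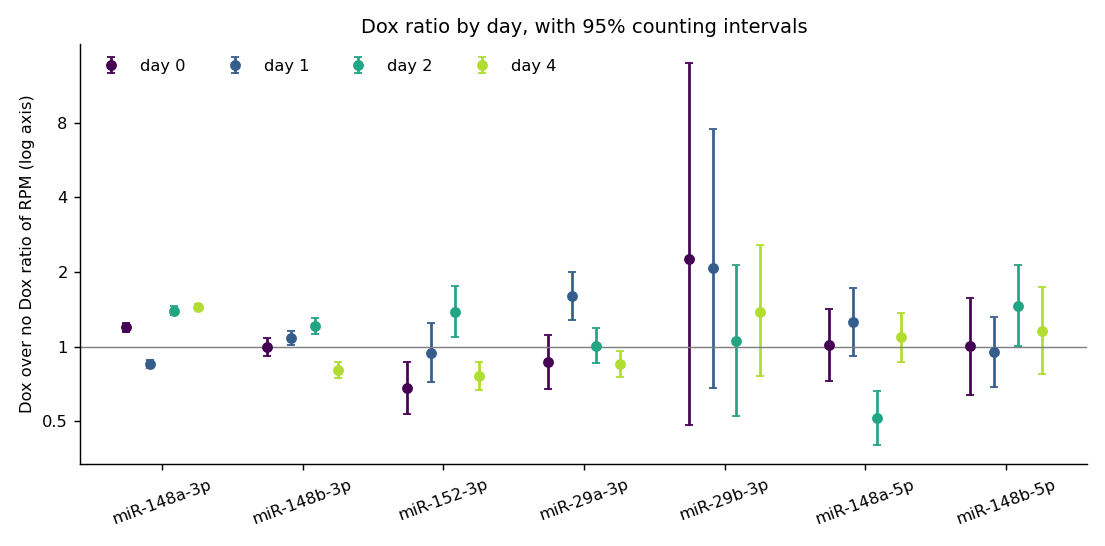
Ratio of RPM with Dox to RPM without Dox (log axis) on each day for 7 members, with 95% exact counting intervals, 1 library pair per point. miR-148a-3p lies above 1 at days 0, 2 and 4 and below it at day 1, and the wide intervals of miR-29b-3p all include 1.

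The arms of 1 hairpin did not always move together. The arm on the 5′ side made up 1.81%, 2.05%, 1.67% and 1.18% of miR-148a reads at days 0, 1, 2 and 4 with Dox, against 2.13%, 1.40%, 4.39% and 1.56% without. The day 2 library without Dox stood apart (exact interval 3.78% to 5.07%). On that day miR-148a-5p stood at 217 RPM with Dox and 420 without, a ratio of 0.517 (0.401 to 0.663), on 102 and 177 reads, while the ratio of miR-148a-3p was 1.40. For miR-148b the arm on the 5′ side held 3.64% to 4.66% with Dox and 3.13% to 4.13% without, and all 8 intervals overlapped.

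For miR-152 the scarce arm had 1 read beside 514 of the other arm at day 4 with Dox (0.194%, exact interval 0.0049% to 1.08%) and 23 beside 452 without (4.84%, 3.09% to 7.18%). miR-152-5p was at 11, 4, 13 and 2 RPM with Dox against 24, 0, 24 and 63 without. Its ratio at day 4 was 0.0291 (0.0007 to 0.179) and its intervals at days 0, 1 and 2 included 1. miR-152-3p differed far less at day 4, at 949 RPM with Dox against 1247 without. For miR-29a and miR-29c the arm on the 5′ side was at most 1.72% of reads, in every library on 5 reads or fewer.

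Other miRNAs reported to act on the same machinery were set beside the families. Of 15 such miRNAs 0 passed for Dox over no Dox (limma, with 2 at an unadjusted p under 0.05, miR-22-3p and miR-26a-5p), and the median log2 change was 0.01 against 0.03 for all miRNAs. For a Dox effect that changes with day 3 passed, all lower, where 0.715% of all miRNAs passed lower: miR-302a-3p, miR-302b-3p and miR-302d-3p. At day 4 these stood at 310, 914 and 800 RPM with Dox against 4444, 12939 and 11363 without. On days 0 to 2 none was above 1025 RPM, so the calls rest largely on the day 4 library without Dox. All 8 calls of this comparison over all miRNAs became 0 without the robust option or without the day 4 pair. At day 1 over day 0, 2 rose, miR-185-5p (by 1.15) and miR-101b-3p (by 0.83), where 7.03% of all miRNAs passed higher. At day 2 over day 0 none passed, against 17.3% of all miRNAs (median 0.21 against 0.48). At day 4 against day 0, 3 rose and 3 fell, where 21.9% of all miRNAs passed higher and 3.81% lower. The median of the 15 was 0.38, against 0.56 for all miRNAs. Those that fell were the miR-290 cluster miRNAs miR-291a-3p (by 1.08, SE 0.22), miR-294-3p (by 1.05, SE 0.22) and miR-295-3p (by 1.31, SE 0.22), which are known in mouse stem cells to repress Rbl2, a repressor of the Dnmt3 genes. miR-302a-3p, with the same core seed, rose by 4.35 (SE 0.96, adjusted p = 0.0318), with day 4 values of 310 RPM with Dox and 4444 without. The larger changes of miR-302b-3p (4.66, limma adjusted p = 0.125) and miR-302d-3p (4.71, limma adjusted p = 0.0939) did not pass. miR-101b-3p rose by 0.65 (SE 0.25, adjusted p = 0.0410) and miR-342-3p by 1.07 (SE 0.42, adjusted p = 0.0434). miR-26a-5p and miR-22-3p, reported to act on TET messages, had 0.38 (adjusted p = 0.297) and -0.40 (adjusted p = 0.319). At day 4 the RPM of miR-29a-3p and miR-148a-3p was higher than at day 0 in both treatments, while that of the miR-290 cluster was lower.

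By pattern over the 8 libraries, the miRNAs most like miR-29a-3p outside the families were miR-337-5p, miR-382-5p and miR-134-5p (Pearson's r of log2(RPM + 1) 0.989, 0.987 and 0.986 among 332 miRNAs averaging 50 RPM or more). All 3 belong to the imprinted Dlk1-Dio3 region. miR-134-5p stood at 3600, 4513, 7536 and 11411 RPM with Dox and 3221, 3053, 7632 and 11562 without at days 0, 1, 2 and 4, and shared the lower value at day 1 without Dox. Most like miR-148a-3p were miR-181a-5p, miR-1843b-5p and miR-382-3p (r 0.939, 0.912 and 0.898). These libraries share their days and depth, so the correlations are a description.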

How the data were processed

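Small RNA libraries were made from TRIzol total RNA with an NEBNext kit, per the labels' protocols. The deposited values are scores: whole numbers that the authors' table gives for 1099 miRNAs and that sum to 999965 to 1000047 in each library, as reads scaled to 1000000 and rounded would. They are called RPM here. The submitters' processing notes name Bowtie and mm10. A row of column sums without values was left out. To recover depth, candidate totals from 200000 to 800000 were searched. A total was accepted if each value equals a whole read count within 0.5 RPM and these counts sum to the total. Day 0 with Dox and day 4 without Dox each had 2 such totals, of which the smallest was kept, and every other library had 1. The kept totals matched 100% of values in all 8 libraries. Intervals at 95% confidence are exact binomial on these reads, and reads are not independent molecules, so they cover counting error only.

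miRNAs at 1 RPM or more in at least 2 libraries were tested (839, all 13 members included) with limma 3.58.1 in R 4.3.3 on log2(RPM + 1), with the trend and robust options, 2-sided, with terms for treatment and for each day (which pairs the libraries of a day), and Benjamini-Hochberg adjustment at 0.05. This left 3 residual degrees of freedom. A changing Dox effect was tested by adding treatment times day, which left 2. In the fit without that term, all but 39 of the 839 miRNAs took their spread wholly from the trend across miRNAs, not from their own values. Of the 39, 3 are members. With that term, all but 3 did so. Design and alternatives had allowed for raw counts. Separate cultures are not stated in the labels. The spread behind each p is that among these libraries, for most miRNAs as pooled over miRNAs, and it may be technical. The smallest adjusted p depend on this. Without the robust option the day 4 adjusted p (limma) was 0.00588 for miR-29a-3p and 0.00681 for miR-148a-3p. Limma-voom on the implied reads called 20 miRNAs for Dox. Members and lists were chosen with earlier results of these data known. All members are named, and the most alike were the 3 with the highest Pearson's r.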

Additional observations from a re-analysis of the deposited data

How the results depend on the processing

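The member counts of the limma comparisons, and the changes of the members named in them, were recomputed with pseudocounts of 0.5 and 5, no filter, a mean of at least 10, other scalings, no robust option, limma-voom and libraries or day pairs left out, and for both Dox terms with another day term. The other values were not recomputed. The count of 0 members for Dox was unchanged in all 14. For a changing Dox effect, leaving out a day pair gave 0 to 1 members (miR-152-5p without day 0, -2.18, adjusted p = 0.044), and the others 0. At day 4, 4 to 6 members passed, with miR-148a-3p (0.86 to 1.64), miR-29a-3p (1.23 to 2.02), miR-29c-3p (1.25 to 2.06) and miR-152-3p (0.95 to 1.82) in all 16 fits, miR-29b-3p (1.78 to 2.63) in 15 and miR-148a-5p (0.32 to 1.08) in 2. The 3 calls at day 2 became 0 with median-of-ratios scaling or without the robust option, and 0 to 3 with 1 library left out (0 without any 1 of the day 0 and day 2 libraries). The call at day 1 became 0 with a pseudocount of 0.5, without the robust option or with limma-voom, 2 with median-of-ratios scaling (miR-152-3p added), and 0 to 1 with 1 library left out (0 without either day 0 or day 2 library or day 1 without Dox). The cause was not tested. Where a library was left out, the lone library of that day was assumed to vary like the others.

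Directions turned only in uncalled values. With median-of-ratios scaling the Dox change of miR-148b-3p was -0.005. With 1 day pair left out it was -0.068 to 0.128, that of miR-148a-5p -0.268 to 0.155, that of miR-29a-3p -0.14 to 0.161, that of miR-29c-3p -0.15 to 0.176 and that of miR-152-5p -2.10 to 0.142, and the change per day of miR-152-5p was -2.18 to 0.111. The day 4 change of miR-148b-3p was -0.415 with median-of-ratios scaling, -0.32 scaled outside the miR-290 cluster and -0.038 to 0.406 with 1 library left out. Over all miRNAs, called numbers moved by over 1.5 times in some fits: for Dox 16 became 0 without the robust option or day term and 1 without the day 2 pair or with linear day, for day 1 68 became 13 without the robust option and 7 without day 1 without Dox, and for day 2 145 became 72 without the robust option and 1 without day 2 without Dox. With median-of-ratios scaling the day 4 calls split 101 higher and 61 lower, against 184 and 32. For a changing Dox effect 8 calls became 0 without the robust option and without the day 2 or the day 4 pair. They also became 0 with days 2 and 4 set against days 0 and 1. Depth limits the arms of miR-29 on the 5′ side and miR-152-5p. The Dox fit pairs libraries by day. The replicate numbers give no further pairing, since each condition has 1 library.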
